A study of Mus musculus with 6 samples.

Results

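The replication-dependent histone cluster Hist1 of mouse chromosome 13 was examined on promoter arrays hybridized with DNA from adipose tissue. Its probes were chosen by position alone. They were the array's promoter probes that start in chr13:21800000-22140000 (block 1) or in chr13:23620000-23870000 (block 2) of the mm9 build, with no measured value used. The rule took 547 of the 174638 promoter probes, 150 in block 1 and 397 in block 2. One probe was marked as an outlier on an array and was left out, so that 546 probes of 174276 were analysed. Probes were joined into a region as long as the next probe began within 500 bp. Hist1 held 47 such regions of 25078 on the array, and 43 of them, 15 in block 1 and 28 in block 2, held the 3 probes needed for a test. The other 4 regions held 6 probes together. The span between the blocks, chr13:22140001-23619999, is rich in vomeronasal receptor genes and served as the neighboring contrast, with 306 probes in 49 regions, of which 42 were tested.

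The replication-dependent histone genes encode the core histones H2A, H2B, H3 and H4 and the linker histone H1, which package newly replicated DNA. They are short genes without introns, they lie in clusters in which neighbors often share a promoter stretch, and they are transcribed mainly in S phase, when DNA is copied. Adipose tissue holds few dividing cells. Vomeronasal receptors of the Vmn1r family are pheromone receptors of sensory neurons in the nose. In methylated DNA immunoprecipitation (MeDIP), an antibody against 5-methylcytidine pulls down sonicated DNA fragments in proportion to their methylated CpG, so that a stretch with few CpG gives little MeDIP signal whether or not these are methylated.

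Both groups were female C57BL/6J offspring examined at 32 weeks of age, 1 mouse per array and 3 per group. The LC group were born to dams that ate a low chromium diet through pregnancy and lactation, the CC group to dams on the control diet, and both groups ate the control diet after weaning. The mice of a group came from separate litters, and the fat depot of the array DNA is not given in the sources used here. Fat holds adipocytes and other cells, so that a change in cell makeup and a change in methylation cannot be told apart, and no marker of adipose tissue could be read from an array that measures DNA. Each value is log2 of MeDIP signal over input signal (Cy5 over Cy3), minus the median of its array. It is called the level here, and 0 is the median promoter probe.

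The arrays differed in ways that touch the results below. The net input signal had a median of 105.5 to 169 in LC against 240 to 334 in CC, and over the Hist1 probes 68.5 to 110.75 against 169.75 to 224.75. The red channel (MeDIP) of CC replicate 3 was scanned at a photomultiplier voltage of 306, against 279 on the other arrays. Its net MeDIP signal had a median of 218.5, against 118 to 147 on the others. Group and slide position cannot be told apart, since every LC array was at position 1 of its slide and every CC array at position 3. Slides were told apart by the identifier of the scan. By it LC replicate 1 and CC replicate 1 shared a slide, as did the replicates 2. The replicates 3 had separate scans, and whether they shared a slide was not established. Replicates that share a number share a scan day. Over the Hist1 regions the arrays correlated with each other at 0.924 to 0.989.

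The arrays name no genes, and genes were at hand only in another build (RefSeq, GRCm38.p6). Therefore a region could not be assigned to a gene, exon or intron. The order of genes in the RefSeq table gives the layout of the cluster. It lists 55 histone genes on chromosome 13, of which 23 lie before and 32 after a stretch of 75 Vmn1r entries (genes and pseudogenes) with 0 histone genes among them. All 5 classes occur on both sides. The H1 genes lie mostly on the far side, with 1 of 6 before the Vmn1r genes, while H2A has 8 of 15 before it, H2B 7 of 14, H3 2 of 9 and H4 5 of 11. The same stretch holds 77 tRNA genes, 32 before and 45 after the Vmn1r genes, so that some Hist1 regions may lie at tRNA genes.

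The promoter sequences show what the antibody can find there. Each stretch below is the 150 bases before the start of a gene, from RefSeq (GRCm38.p6), read 5′ to 3′ on the strand of the gene, with every CpG in capitals. For each of the 5 histone classes the stretch with the most CpG within these 150 bases was taken, leaving out stretches that overlap another gene. As the contrast, 1 vomeronasal receptor promoter with the median CpG count of its family was added. The stretches therefore set the richest histone promoters beside a typical receptor promoter, and H2ac8 and H2bc3 hold 0 CpG in these 150 bases.
H1f4 (linker histone H1, minus strand, 15 CpG): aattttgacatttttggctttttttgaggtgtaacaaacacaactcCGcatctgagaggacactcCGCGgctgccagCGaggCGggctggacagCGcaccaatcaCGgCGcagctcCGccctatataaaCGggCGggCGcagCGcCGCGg
H2ac22 (core histone H2A, minus strand, 10 CpG): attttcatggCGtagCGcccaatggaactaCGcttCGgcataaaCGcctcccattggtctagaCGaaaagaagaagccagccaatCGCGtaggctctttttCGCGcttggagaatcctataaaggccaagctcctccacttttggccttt
H2bc23 (core histone H2B, minus strand, 11 CpG): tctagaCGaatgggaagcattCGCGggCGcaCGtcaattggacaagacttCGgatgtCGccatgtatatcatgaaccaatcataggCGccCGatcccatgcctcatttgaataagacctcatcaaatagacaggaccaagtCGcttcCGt
H3c8 (core histone H3, plus strand, 14 CpG): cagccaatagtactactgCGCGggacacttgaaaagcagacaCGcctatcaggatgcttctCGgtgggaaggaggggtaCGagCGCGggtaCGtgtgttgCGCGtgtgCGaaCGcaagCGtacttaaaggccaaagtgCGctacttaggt
H4c1 (core histone H4, minus strand, 18 CpG): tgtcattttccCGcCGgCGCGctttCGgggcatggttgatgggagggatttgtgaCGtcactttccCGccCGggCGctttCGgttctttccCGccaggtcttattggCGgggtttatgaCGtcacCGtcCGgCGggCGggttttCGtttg
Vmn1r189 (vomeronasal receptor, minus strand, 1 CpG): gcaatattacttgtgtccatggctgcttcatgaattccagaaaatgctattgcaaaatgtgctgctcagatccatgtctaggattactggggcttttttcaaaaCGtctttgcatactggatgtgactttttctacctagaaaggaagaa

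H4c1, H1f4 and H3c8 hold 18, 15 and 14 CpG in the stretch shown, H2bc23 and H2ac22 hold 11 and 10, and Vmn1r189 holds 1. Over the 250 bases before the start, the 51 promoters of 50 Hist1 genes in the table had a median of 9 CpG, from 2 in H2bc3 and H4c2 to 27 in H4c1. The 33 Vmn1r promoters of chromosome 13 had a median of 1, and all 32841 promoters of the table a median of 6. The observed over expected CpG ratio, which takes the base composition into account, had a median of 0.745 in the Hist1 promoters, 0.116 in the Vmn1r promoters and 0.374 in all promoters. The Hist1 promoters were not GC-rich, with a median of 44.4% G and C against 52.4% in all promoters. The classes differed in their CpG as well, with medians of 11 for H1, 10 for H4, 7.5 for H2B, 7 for H2A and 6 for H3.

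Short motifs known from histone promoters were searched in the same 250 bases on both strands. CCAAT, the box bound by NF-Y, was in 84.3% of the Hist1 promoters and in 33.9% of all promoters. It was in every H1, H2A, H2B and H3 promoter of the table and in 27.3% of the H4 promoters. TATAAA, a form of the TATA box, was in 51.0% of the Hist1 promoters against 12.4% of all. ATTTGCAT, the octamer bound by Oct-1 in H2B promoters, was in 42.9% of the H2B and 38.5% of the H2A promoters, in 0 of the H1, H3 and H4 promoters, and in 1.60% of all. Neighboring H2A and H2B genes often face away from each other and can share it. AAACACA, the H1 box, was in 5 of 6 H1 promoters (83.3%) against 6.25% of all. In H1f4 it stands in the sequence printed above as aaacaca, followed downstream by the TATA box tataaa. Each motif was searched on its own, overlaps between motifs were not checked, and a match is a description of the window only.

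The Hist1 blocks lay a little below the median promoter probe and above the span between them. The median level of the 546 Hist1 probes was -0.15, -0.18 and -0.18 on LC replicates 1, 2 and 3 and -0.36, -0.30 and -0.26 on the CC replicates. All 6 arrays were below 0, and every LC array was above every CC array. The median of the span was lower still, from -0.46 to -0.53 in LC and from -0.71 to -0.74 in CC. Hist1 was above the span on all 6 arrays, by 0.38 ± 0.061 (SD, n = 6), from 0.32 to 0.49. Block 1 was nearer to the array median, at -0.06 ± 0.060, than block 2, at -0.28 ± 0.083 (SD, n = 6). These are medians over neighboring probes with no test, since probes of 1 block share fragments and are not replicates.

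The level of a probe moved with its length, and Hist1 has unusual lengths. The array's probes are 45 to 60 bases long, and 32.1% of the Hist1 probes were 45 bases long against 50.03% of the probes outside Hist1 and the span. Probes of 60 bases made up 21.8% of Hist1, 34.3% of the span and 13.1% of the others. Among probes of 45 bases the Hist1 median was 0.44 ± 0.049 (SD, n = 6), the median of the others 0.43 ± 0.091 and the median of the span 0.09 ± 0.059. Among probes of 46 to 59 bases these medians were -0.47, -0.44 and -0.55. Among probes of 60 bases they were -0.87 ± 0.168, -1.14 ± 0.183 and -1.46 ± 0.283. At 45 bases Hist1 differed from the other probes by less than the spread of the arrays and lay above the span on all 6 arrays, by 0.35 ± 0.070 (SD, n = 6). At 46 to 59 bases, the class with the most Hist1 probes, the excess over the span was 0.09 ± 0.064, and Hist1 lay above the span on 5 arrays and below it on LC replicate 1. The medians at 60 bases rest mostly on dim probes in both Hist1 and the span.

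The gap between the groups also varied with probe length, inside and outside Hist1. At 45 bases the Hist1 median was 0.41 ± 0.040 in LC and 0.47 ± 0.048 in CC (SD, n = 3), and the groups overlapped. At 46 to 59 bases it was -0.40 ± 0.028 in LC and -0.54 ± 0.013 in CC, and at 60 bases -0.76 ± 0.083 and -0.99 ± 0.151, with every LC array above every CC array in both classes. The other probes had medians of 0.36 in LC and 0.51 in CC at 45 bases, with all LC arrays lower, of -0.37 and -0.52 at 46 to 59 bases, and of -0.99 and -1.28 at 60 bases, with all LC arrays higher in the last pair of classes. These medians were not tested. With the trend on probe length removed from each array, the median difference over the Hist1 regions was 0.02 in place of 0.07.

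The longest probes were also the dimmest. On no array was the MeDIP signal well above background for 85 of the 119 Hist1 probes of 60 bases (71.4%), against 13 of 175 (7.43%) at 45 bases. Over all lengths this held for 178 of 546 Hist1 probes (32.6%), 113 of 306 in the span (36.9%) and 22.6% of the other probes. Of these 178 Hist1 probes, 91 had an input signal well above background on all 6 arrays, and their level is only an upper limit. The input was well above background on some arrays for 68 and on none for 19, all of 60 bases, and where both channels are dim the ratio sets no limit in either direction.

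Of the 43 regions, 26 (60.5%) lay below the array median in the limma fit and 11 (25.6%) above it, while 55.4% of all 22584 regions lay below and 35.6% above (adjusted p under 0.05 over all regions). The blocks differed in these counts. Block 1 had 5 of 15 regions below and 6 above, and block 2 had 21 of 28 below and 5 above. In the span 36 of 42 were below and 4 above. The split depended on the scaling. It was 17 below and 22 above with normexp background correction, where 41.7% of all regions were below and 46.9% above. With loess within arrays it was 15 (34.9%) and 25 (58.1%), against 46.5% and 42.6% of all regions, and with the trend on probe length removed 14 (32.6%) and 22 (51.2%), against 50.4% and 39.9%. The authors' processed values gave 25 and 17, with 50.1% and 43.5% of all regions. So the share of Hist1 regions below the array median was near that of all regions as scaled here, by the authors or with normexp. It was smaller than that of all regions with loess or the length trend removed. These shares were not tested against each other, and they rest on 43 neighboring regions of 1 cluster. Among the 39 regions that kept 3 probes well above background in both channels, a filter that keeps a bright MeDIP signal, 5 (12.8%) were below and 31 (79.5%) above, against 21.0% and 71.8%. The levels of the regions ran from -1.40 to 0.57 with a median of -0.19. Their SD of 0.463 was narrower than that of all regions (0.748) and of the span (0.670).

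The 5 lowest regions stood well apart from 0 on every array. The lowest, chr13:23757067-23758154 in block 2 with 6 probes, measured -1.24, -1.30 and -1.41 on the LC arrays and -1.52, -1.51 and -1.44 on the CC arrays. Its mean of -1.40 ± 0.110 (SD, n = 6) was at percentile 5.50 of all regions. In 5 of its 6 probes the MeDIP signal was not well above background on any LC or any CC array. Next came chr13:21874784-21876505 in block 1 at -1.12 ± 0.132, then chr13:23786380-23788169 at -0.97 ± 0.047 and chr13:23643164-23644643 at -0.94 ± 0.061 in block 2, and chr13:21923668-21926616 in block 1 at -0.91 ± 0.039. The last of these holds no probe of 60 bases, and 10 of its 14 probes are 45 bases long. Kept to probes bright in both channels, however, it read 0.30, and chr13:21874784-21876505 read 0.45. Among the last 3 of these the spread over arrays exceeded the gaps.

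The 5 highest regions lay less far from 0. The highest, chr13:21812764-21814255 in block 1 with 8 probes, measured 0.67, 0.60 and 0.53 on the LC arrays and 0.60, 0.48 and 0.56 on the CC arrays, with a mean of 0.57 ± 0.064 (SD, n = 6) at percentile 91.0 of all regions. The groups overlapped. Taking the median over its probes in place of the mean turned its sign, to -0.13. It was followed by chr13:21825719-21827098 at 0.49 ± 0.075, chr13:23653774-23655412 at 0.42 ± 0.066, chr13:23852724-23855897 at 0.33 ± 0.059 and chr13:21872067-21873574 at 0.30 ± 0.112. The first, the second and the last of these lie in block 1, and the last lies right before the second lowest region, chr13:21874784-21876505, so that neighboring regions of block 1 were among the highest and the lowest of the cluster.

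The probes of a region differed widely. Their SD around the region mean, pooled over the 43 regions, was 1.52, while the SD of a single probe over the 6 arrays had a median of 0.196. Single probes ran from -4.60 to 4.20. Neighboring probes, a median of 208 bp apart, had levels that differed by a median of 1.46. Over 499 neighboring pairs of Hist1 their levels correlated at 0.04, against 0.17 over 148442 pairs outside Hist1 and the span. The span was much like Hist1 here, with a median step of 1.52 and a correlation of 0.05 over 257 pairs. The pairs share regions and arrays, and the correlation is given as a description. The 5 highest probes of Hist1 were all 45 bases long, and all lay well above background in both channels on every array. The highest, chr13:23853959-23854003, measured 3.79, 4.15 and 4.28 on the LC arrays and 4.36, 4.31 and 4.30 on the CC arrays.

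Neighbors on the same side were listed as runs of at least 3 probes above 1 or at least 4 below -1. In the region with the most probes, chr13:23825014-23838932 with 64 probes, 4 neighbors from chr13:23830587 to 23831255 were all above 1, with a mean level of 2.40, from 2.19 to 2.71. Their mean was 2.15 in LC and 2.65 in CC. Another 4 neighbors of that region, from chr13:23835895 to 23836611, were all below -1. Only 1 other run of 3 or more probes above 1 was found, at chr13:23646835-23647289 (mean 2.11). The longest run below -1 held 6 probes, at chr13:23758643-23760266 (mean -2.22), directly after the lowest region of the cluster. Further runs of 4 probes below -1 lay at chr13:23757486-23758154, inside that lowest region, at chr13:23643565-23644443 and at chr13:23847802-23848631. These runs were picked after the levels were seen. Of all Hist1 probes 20.5% lay above 1 and 33.7% below -1. How many such runs unordered probes would give was not computed. The 64 probes had a region mean of -0.28 ± 0.071 (SD, n = 6), with 38 probes below 0 and 13 above 1, and the other long region, chr13:23766152-23780898 with 60 probes, had 35 below 0 and 13 above 1. In block 1 the region with the most probes, chr13:22132837-22135937 with 15, was at 0.05 ± 0.046.

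The comparison of LC with CC asks whether maternal chromium restriction left a difference in methylation in adult fat. Few Hist1 regions passed the test. In the limma fit over all regions, 0 of 43 Hist1 regions were lower in LC, while 8.84% of all regions were, and 2 (4.65%) were higher, against 10.2% of all regions. Both shares were under the background. At an unadjusted p under 0.05 the counts were 3 lower (6.98%) and 14 higher (32.6%), against 17.2% and 21.5% of all regions. The median difference of the 43 regions was 0.07, beside 0.02 over all regions and 0.18 in the span, and the differences ran from -0.21 to 0.34. That median was 0.0090 with loess, 0.01 with the authors' values and 0.02 with the trend on probe length removed, where the medians of all regions were -0.0016, 0.0063 and 0.0044. With the replicate number as a block no Hist1 region was called, and none of the 22584 regions was. In 17 regions (39.5%) all LC arrays lay above all CC arrays, against 24.1% of all regions. In 1 region all LC arrays lay below, against 20.5%. The span went further in the same direction. There all LC arrays lay above in 25 of 42 regions (59.5%) and below in 1 (2.38%). In the limma fit 14 span regions (33.3%) were called higher and 1 lower, and 29 (69.0%) were higher at an unadjusted p under 0.05. Between the LC and the CC array of the same scan day, the median difference over the 43 regions was 0.13, 0.06 and 0.03 on days 1, 2 and 3. The daily medians over all regions were not computed, so these values have no background beside them. The p-values rest on the spread between 3 mice per group, with the variance of each region moderated by limma with that of all regions.

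The larger of the called differences was at chr13:23822417-23824526 in block 2, a region of 9 probes just before the region of 64 probes. It measured -0.37, -0.78 and -0.70 on LC replicates 1, 2 and 3 and -1.01, -0.96 and -0.89 on the CC replicates. Every LC array was above every CC array, and LC replicate 1 stood apart from the other LC arrays. The group means were -0.61 ± 0.216 in LC and -0.95 ± 0.061 in CC (SD, n = 3), and the difference was 0.34 (SE 0.093, limma adjusted p = 0.0355). It was 0.64 on scan day 1 and 0.18 and 0.20 on days 2 and 3, and without LC replicate 1 it was 0.22. In this region 5 of 9 probes are 60 bases long, and 5 were dim in MeDIP on every array of both groups. The input signal differed between the groups by -0.27 on the log2 scale and the MeDIP signal by 0.03.

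The other called region, chr13:22101216-22102789 in block 1 with 8 probes, measured 0.47, 0.26 and 0.27 on the LC arrays and 0.13, 0.12 and 0.15 on the CC arrays. The LC arrays were again all higher, with LC replicate 1 highest. The difference was 0.20 (SE 0.061, limma adjusted p = 0.0475), and it was 0.34, 0.15 and 0.11 on the scan days. Its last probes, both of 60 bases, were dim in MeDIP on all arrays. With probes well above background in the input alone the difference was 0.06 (limma adjusted p = 0.445), and the call was lost. The part of dim probes and of long probes in this call was not tested. Both calls were lost under several alternatives. With the trend on probe length removed the difference at chr13:23822417-23824526 was 0.16 (limma adjusted p = 0.172) and that at chr13:22101216-22102789 0.11 (0.211). With normexp they were 0.10 (0.0969) and 0.08 (0.264), with loess 0.18 (0.0913) and 0.14 (0.126), and with the authors' values 0.02 (0.793) and 0.10 (0.142). With the replicate block the differences were as large as without it, and the limma adjusted p was 0.0664 and 0.0712. With any 1 CC array left out the limma adjusted p was 0.0836 to 0.135. The call at chr13:22101216-22102789 was lost without LC replicate 1 or LC replicate 3 as well (0.0762 and 0.0522). That at chr13:23822417-23824526 held without any 1 LC array (limma adjusted p from 0.0171 to 0.0473). It also held with probes bright in input, at 0.26 (0.0146), and with the median over probes, at 0.54 (0.0361). With probes bright in both channels this region kept too few probes for a test. Both calls held with slide as a random block (0.0335 and 0.0446).

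Of the values that did not pass, the largest positive difference was at chr13:21874784-21876505, the second lowest region by level, at 0.19 (SE 0.063, limma adjusted p = 0.0573). The most negative was at chr13:23781366-23784309 in block 2 with 14 probes, which measured -0.83, -0.57 and -0.72 in LC and -0.63, -0.45 and -0.41 in CC. The groups overlapped, and the difference was -0.21 (SE 0.078, limma adjusted p = 0.0751). It was called lower in 8 of 20 alternatives, at -0.34 to -0.19 (limma adjusted p from 0.0062 to 0.0490), among them normexp, loess, the authors' values (-0.27), both filters on dim probes (-0.27 and -0.26) and removal of the length trend (-0.33). A single probe there, chr13:23781780-23781824, fell by 1.40 on the log2 scale, and the median over the probes in place of the mean turned the difference to 0.10 (limma adjusted p = 0.406). The differences at chr13:22035718-22037309 and chr13:21825719-21827098, both in block 1, were -0.15 and -0.11.

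In most regions the input moved more than the MeDIP signal. The input difference was the larger in 33 of 43 regions (76.7%), against 84.0% of all regions. Over the 43 regions the input differences (LC minus CC, each channel centred on its own array median) ran from -0.27 to 0.29 and the MeDIP differences from -0.08 to 0.07. The part of the input signal in the differences of log2(MeDIP/input) was not tested.

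By single probe, 17 of 546 Hist1 probes (3.11%) were lower in LC and 13 (2.38%) higher in the limma fit over all probes, against 4.29% and 1.75% of all probes. The direction went with probe length. Of the 17 lower probes 12 were 45 bases long and none was longer than 52, and of the 13 higher probes none was shorter than 55 and 7 were 60 bases long. The lower probes lay in 14 regions and the higher ones in 9. The lower ones were bright. In 16 of 17 the MeDIP signal was well above background on all arrays, and 9 of 17 had an input signal over 4 times the array median, which held for 48 of 546 Hist1 probes (8.79%) and for 15.1% of all probes. Among the higher ones 8 of 13 were not well above background in MeDIP on any array, and none had such a bright input. The part of probe length and brightness in these calls was not tested beyond the trend on length. With that trend removed 6 of 546 probes were lower and 0 higher, against 0.604% and 0.0746% of all probes.

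The lowest probe, chr13:23781780-23781824, measured -2.20, -2.24 and -1.88 on the LC arrays and -0.94, -0.58 and -0.59 on the CC arrays. The groups were far apart, with a difference of -1.40 (SE 0.142, limma adjusted p = 0.0300). The others bright in MeDIP on all arrays differed by -0.94 to -0.46. Among them chr13:23830792-23830836 lies in the run of probes above 1 of the 64-probe region. It measured 1.50, 2.08 and 1.65 in LC and 2.54, 2.69 and 2.66 in CC. Of the higher probes, the 5 bright in MeDIP on all arrays differed by 0.48 to 0.64. The largest of these, chr13:23745424-23745481, measured -0.12, -0.34 and -0.39 in LC and -0.97, -0.98 and -0.83 in CC. Probes of both directions occurred together in 4 regions. One was the 64-probe region, and another lay around chr13:21903186-21903499 in block 1, where a probe of 45 bases was lower by 0.77 and the next, of 59 bases, was higher by 0.54.

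A peak search of the kind the study names, a Kolmogorov–Smirnov (KS) test in sliding windows, was run on the group means. The study does not give all its settings. Here the ranks of the probe differences were tested one-sided in windows of 750 bp, and a peak was called where 2 or more neighbors in a row each reached a score (-log10 p) of 2. The search holds no spread between mice. A lower (hypomethylated) peak was found in 1 of 43 Hist1 regions, against 4.10% of all regions, and a higher (hypermethylated) peak in 3, against 2.19%. The lower peak was in the 64-probe region, which held a higher peak as well, and the other higher peaks were in the region of 60 probes and in chr13:23822417-23824526. In block 1 none was found. With a score of at least 3 no Hist1 peak was left in either direction.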

How the data were processed

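Per the labels, MeDIP DNA (Cy5) and input DNA (Cy3) of adipose tissue were hybridized to 1 array of 2 colors per mouse, without a dye swap. The authors deposited scanner output of Feature Extraction 11.0.1.1 on an mm9 design, with raw and processed intensities for each dye; the processed intensity had been background-subtracted, spatially detrended and scaled by 1 factor per dye. The deposited log10 ratio was used to check the direction only. The authors' own processed values, on a log2 scale with the method not given in the sources used here, served as an alternative. Deposited flags of 0 or 1 marked outlier spots and spots well above background.

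Control features (5827) and outlier probes (362) were left out. The log2 ratio of the processed signals was centered on each array's median, without loess or quantile normalization. Means over regions, and single probes, were fitted with limma 3.58.1 in R 4.3.3 (lmFit, eBayes) on all 6 arrays and adjusted by Benjamini-Hochberg over all regions or probes (threshold 0.05). Scripts were tested on simulated data. Arrays have no counting depth, and precision is set by the 3 arrays per group. Regions named are the 5 lowest and 5 highest by level, the called differences, the 3 largest in a direction where fewer than 3 were called, and the longest in each block. Promoters printed were those with the most CpG per class in the bases shown. The window and peak rule of the KS search were chosen here.

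The cluster, the lists and the tests were chosen with earlier results of these data known. The alternatives were other background correction, scaling, filters on dim probes, region summaries and definitions, blocks, tests, search settings, and each array left out in turn. The replicate numbers are shared by the groups; deviations of arrays of the same number from their group means correlated at -0.16, 0.11 and -0.0008 over all regions and at 0.33, 0.45 and 0.15 over the Hist1 regions. The labels name no pairs of mice, and over all regions the numbers were not shown to pair them, so the block stayed an alternative.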

Additional observations from a re-analysis of the deposited data

How the results depend on the processing

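The differences between LC and CC depended on the processing. Hist1 stayed above the span in every alternative run, but probes of 46 to 59 bases alone were not among these. In that class the excess was 0.09 ± 0.064 (SD, n = 6), and Hist1 lay below the span on LC replicate 1. The level of Hist1 minus that of the span stayed above 0 in all 15 alternatives run, at 0.21 with normexp, 0.28 with the authors' values, 0.30 with probes bright in both channels and 0.31 with the trend on probe length removed, and from 0.36 to 0.39 with 1 array left out. The split of levels, 26 below and 11 above, was 17 and 22 with normexp, 15 and 25 with loess, and 14 and 22 with the trend on probe length removed. It was 25 and 17 with the authors' values and 5 and 31 with probes bright in both channels. At a limit of 300 bp between starts it was 39 and 21 of 70 regions (55.71% and 30%, against 53.45% and 37.59% of all regions). Leaving out 1 array left 26 below and 11 to 12 above. The number of regions higher in LC was 2 of 43 (4.65%, against 10.2% of all regions). It was 7 with normexp (16.3%, against 20.7% of all regions), 5 with the 300 bp limit (7.14% against 7.70%) and 4 with probes bright in input (9.30% against 10.9%). With probes bright in both channels it was 1 (2.56% against 6.03%), as with the median over probes (2.33% against 3.29%). It was 0 with loess (against 3.12% of all regions), quantile normalization (2.30%), equal spread over the arrays (1.38%) and the trend on probe length removed (1.37%). It was also 0 with the methods' t-test, the replicate block, or the replicate block and the trend removed together (against 0, 0 and 1.79% of all regions). It ran from 0 to 4 with 1 array left out (0 without any 1 of the CC arrays). With the replicate block, the methods' t-test, or without CC replicate 1 or CC replicate 3, 0 of all 22584 regions were called in either direction, so that these lost calls were lost across the array. The number lower in LC was 0 of 43, against 8.84% of all regions. It was 1 with normexp (2.33%, against 6.76% of all regions) or the authors' values (2.33% against 9.26%). With the trend on probe length removed it was 1 (2.33% against 2.85%), as with the 300 bp limit (1.43% against 8.29%). It was 2 with loess (4.65% against 6.37%), probes bright in input (4.65% against 14.5%) or probes bright in both channels (5.13% against 21.7%). With the replicate block and the trend removed together it was 3 (6.98%, against 4.09% of all regions), and with 1 array left out 0 to 1. Unadjusted, the methods' t-test gave 1 lower and 8 higher. The median difference over the Hist1 regions turned from 0.07 to -0.0085 with probes bright in both channels, where the median of all regions was -0.05.

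By probe, 17 were lower and 13 higher. The counts were 40 and 74 with normexp (7.33% and 13.6%, against 8.20% and 13.5% of all probes), 37 and 25 with the authors' values (6.78% and 4.58%, against 7.74% and 4.77%), 8 and 2 with loess (1.47% and 0.366%, against 1.67% and 0.182%), 26 and 41 with slide as a random block (4.76% and 7.51%, against 9.41% and 6.40%), 11 and 4 with the replicate block (2.01% and 0.733%, against 1.77% and 0.296%), 6 and 0 with the trend on probe length removed, and 0 and 0 with the methods' t-test. The higher ones were also 1 with quantile normalization (0.183%, against 0.208% of all probes) and 1 with equal spread over the arrays (0.183% against 0.224%). They were 21 of the 436 probes bright in input (4.82% against 4.56%). With 1 array left out the counts ran from 0 to 20 and from 0 to 29, and they were 0 without any 1 of the CC arrays, as they were for all 174276 probes. The cause of these shifts was not tested. The KS search gave 2 regions with a lower peak at 1000 bp windows (4.65%, against 6.73% of all regions) and 4 with the authors' values (9.30% against 8.78%). It gave 2 with normexp (4.65% against 3.38%), and 0 with a score of 3 or with 3 adjacent probes (against 0.52% and 1.09%). A higher peak was in 1 region at 500 bp windows (2.33% against 1.03%) and in 6 with the authors' values (14.0% against 6.69%). It was in 1 with normexp (2.33% against 3.75%), 0 with a score of 3 (against 0.164%) and 1 with 3 adjacent probes (2.33% against 0.691%). With 1 array left out these were 0 to 1 (0 without CC replicate 1) and 2 to 5. Among the named regions, chr13:23781366-23784309 turned to 0.10 with the median over probes and was called lower in 8 of 20 alternatives, at -0.34 to -0.19, the level of chr13:21812764-21814255 turned to -0.13 with the median, and with probes bright in both channels the levels of chr13:21874784-21876505 and chr13:21923668-21926616 turned to 0.45 and 0.30. The other 155 of 158 levels of named regions kept their sign and call. The low signal of the longest probes limits what these arrays can show.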
